A study of Xenopus laevis with 4 samples.

Results

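The genes described here run the cell division cycle and prepare chromosomes for replication: cyclins A, B, D, E and G, the numbered cyclin-dependent kinases (Cdks), the cdkn Cdk inhibitors, the Cdc25 phosphatases and Wee1 kinases that switch Cdks on and off, the Polo and Aurora kinases with cdc20, and the origin recognition, licensing and Mcm helicase genes. Members were chosen by symbol alone, from name patterns for these families, and 107 of the 21531 genes in the table matched. They stand for 66 gene names, because Xenopus laevis is allotetraploid and carries many genes as a .L and an .S homeolog. Of these members, 91 had a mean of 50 or more normalized counts over the libraries and 16 lay below. The annotation of the v10.1 assembly holds 112 symbols of the same form, of which 104 were in the table, and the other members were matched by the symbol in the table only.

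A cyclin binds a Cdk and makes it active, and the pair is held back by Wee1 phosphorylation, released by Cdc25 and blocked by Cdk inhibitors. Before replication, the origin recognition complex with Cdc6 and Cdt1 loads the Mcm2-7 helicase onto DNA, geminin blocks Cdt1 so that this happens once in a cycle, and Cdc45 later turns the loaded helicase on. The frog egg stocks RNA for many of these proteins, cleaves rapidly without growth, and after the midblastula transition replaces some stored forms with others transcribed by the embryo: cyclin A1 by cyclin A2, Wee1A (wee2) by Wee1B (wee1), and maternal Mcm6 (mcm6) by zygotic Mcm6 (mcm6.2).

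RNA-seq libraries were made from ventral mesoderm of gastrulating embryos. The 2 control libraries came from embryos injected with Cas7-11 mRNA, and the 2 sox8 CRISPR libraries from embryos given Cas7-11 mRNA together with guides to sox8, so all 4 carry the nuclease. Cas7-11 cuts RNA, so this is a knockdown of the transcript of sox8, a SoxE transcription factor, and the gene itself is not edited. The injection was aimed at the ventral side of the embryo. The study asked which genes of the ventral territory depend on sox8, and for the cell cycle genes the question is whether their levels differed between the groups. The labels name each library as an embryo and the study calls them biological replicates.

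The values are read counts per gene divided by a size factor per library, called normalized counts below, and 1 read was worth between 0.625 and 1.56 of them. A pair of values for a gene or list is for control 1 and control 2, and the pair after "against" is for sox8 CRISPR 1 and sox8 CRISPR 2. The libraries held from 18189895 to 24108577 reads on genes, and sox8 CRISPR 2 listed 3862 genes at 0, while the others listed 667 to 1290. Transcripts of both sox8 homeologs were selected for guide design. The gene sox8.L had 508 and 927 normalized counts against 26.9 and 25.4 (log2 fold change -4.66, SE 0.97, adjusted p = 0.0436 in limma), while sox8.S had 14.1 and 43.7 against 133.7 and 0. The tissue of the libraries differed in its markers too. Of 18 ventral mesoderm genes, 16 (88.9%, beside 19.1% of all genes) lay below both controls in each sox8 CRISPR library. Limma called 8 of the 18, beside 0.334% of all genes. The summed level of the 18 was 83798 and 88069 against 35888 and 41569. Of 15 dorsal organizer genes, 10 were above both controls in each sox8 CRISPR library (66.7%, beside 17% of all genes) and limma called 6. The 15 summed to 809 and 1048 against 59596 and 7131, with 5 and 7 of them at 0 against 0 and 1. Endoderm markers summed to 1468 and 1304 against 28232 and 5841. Much of this lay in their 2 called genes, which are also organizer genes. These were foxa4.L (245 and 361 against 13950 and 3648) and foxa4.S (40.6 and 31.8 against 11220 and 781). Of the 15 endoderm genes, 6 had positive and 9 negative fold changes, with a median log2 fold change of -1.19. Both sox8 CRISPR libraries were above both controls in 4 and below in 3 (26.7% and 20%, beside 17% and 19.1% of all genes). Neural markers summed to 1515 and 2578 against 7078 and 3476, while epidermal sums (935 and 545 against 610 and 516) overlapped between the groups. In bulk tissue, fewer cells of a type and less RNA per cell cannot be told apart. The part of these tissue differences in the cell cycle values was not tested.

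The members with the 5 smallest unadjusted p were the maternal cyclin gene ccna1.S, 6.73-fold higher in sox8 CRISPR, the kinase gene plk2.L, 34.6-fold higher, the cyclin gene ccnd1.L, 4.95-fold lower, the origin gene orc2.S, 8.24-fold lower, and cdk15.L, 15.9-fold lower. None of the 107 members passed limma's test over all genes (adjusted p under 0.05 with an absolute log2 fold change over 0.58), beside 72 genes or 0.334% of the table, and none passed edgeR's quasi-likelihood test, beside 0.506%. DESeq2's Wald test called ccna1.S and plk2.L, both higher, beside 2.33% of the genes to which it gave an adjusted p, and it gave none to 8 members. At an unadjusted limma p under 0.05, 8 members were higher in sox8 CRISPR (7.48%, beside 3.01% of all genes) and 3 were lower (2.80%, beside 3.79%). The higher ones were ccna1.S, plk2.L, orc6.L, ccng1.L, wee2.L, cdkn1a.L, wee1.S and cdkn2b.L, and the lower ones ccnd1.L, orc2.S and cdk15.L. These counts moved with single libraries. Without sox8 CRISPR 1 they were 1 higher and 10 lower (0.93% and 9.35%, beside 4.49% and 14.0% of all genes in the same fit), and without sox8 CRISPR 2 they were 6 and 2 (5.61% and 1.87%, beside 4.28% and 2.82%). Without control 1 they were 3 and 1 (2.80% and 0.93%, beside 0.98% and 1.38%), and without control 2 they were 4 and 2 (3.74% and 1.87%, beside 1.44% and 2.66%).

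The sign of the fold change was positive in 60 members (56.1%, beside 45.4% of all genes) and negative in 47. The median log2 fold change was 0.13, beside -0.16 over all genes. Without control 1 the median of the members was -0.13, beside -0.17 over all genes, and without sox8 CRISPR 2 it was 0.49, beside 0.09. Both sox8 CRISPR libraries lay above both controls in 28 members (26.2%, where 17% of all genes did so) and below both in 15 (14.0%, where 19.1% did), and the groups overlapped in 64. Among the 91 members with a mean of 50 or more, 27 were above and 12 below (29.7% and 13.2%). Over the 13718 genes with such a mean, 19.4% and 19.2% were. The median of the 91 was 0.30, beside -0.09 over those genes. Some members pass this mean only through the group where they are high, such as plk2.L (control mean 5.48) above and cdk15.L (sox8 CRISPR mean 11.8) below. Among the 16 members under that mean, 13 had negative fold changes, and the median was -0.94. Negative fold changes were also held by 11753 of all 21531 genes, 7279 of them among the 13718 with a mean of 50 or more. All genes under that mean were not counted separately. Of all members, 12 were at 0 in sox8 CRISPR 2, beside 2 and 3 in the controls and 0 in sox8 CRISPR 1. Beyond a log2 change of 0.58 in either direction lay 66.4% of members and 67.3% of all genes, so large fitted changes were about as frequent here as elsewhere.

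The role groups did not share a direction. All 4 cyclin A genes, all 4 cyclin E genes and all 4 Wee1 kinases had positive fold changes, with medians of 1.57, 0.81 and 1.90. The gene wee1.L was negative with a pseudocount of 0.5 (-0.05) and without control 1 or sox8 CRISPR 1, and ccne1.L without control 1. All 4 cyclin D genes had negative fold changes, with a median of -1.33 (-0.33 without sox8 CRISPR 2). Without control 1 ccnd2.S was positive, and without sox8 CRISPR 2 ccnd2.L was. Of 19 Cdks other than cdk1, cdk2, cdk4 and cdk6, 14 had negative fold changes, beside 11753 of all 21531 genes. Their median was -0.82. Without sox8 CRISPR 2 the median of these 19 was 0.26 and 8 of 19 were negative. The Mcm2-7 genes were split evenly, 6 positive and 6 negative (7 and 5 with TMM scaling or in edgeR), with a median of 0.03. That median was -0.41 without control 1, -0.88 without sox8 CRISPR 1, 0.41 without control 2 and 0.53 without sox8 CRISPR 2.

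**Figure D1:**
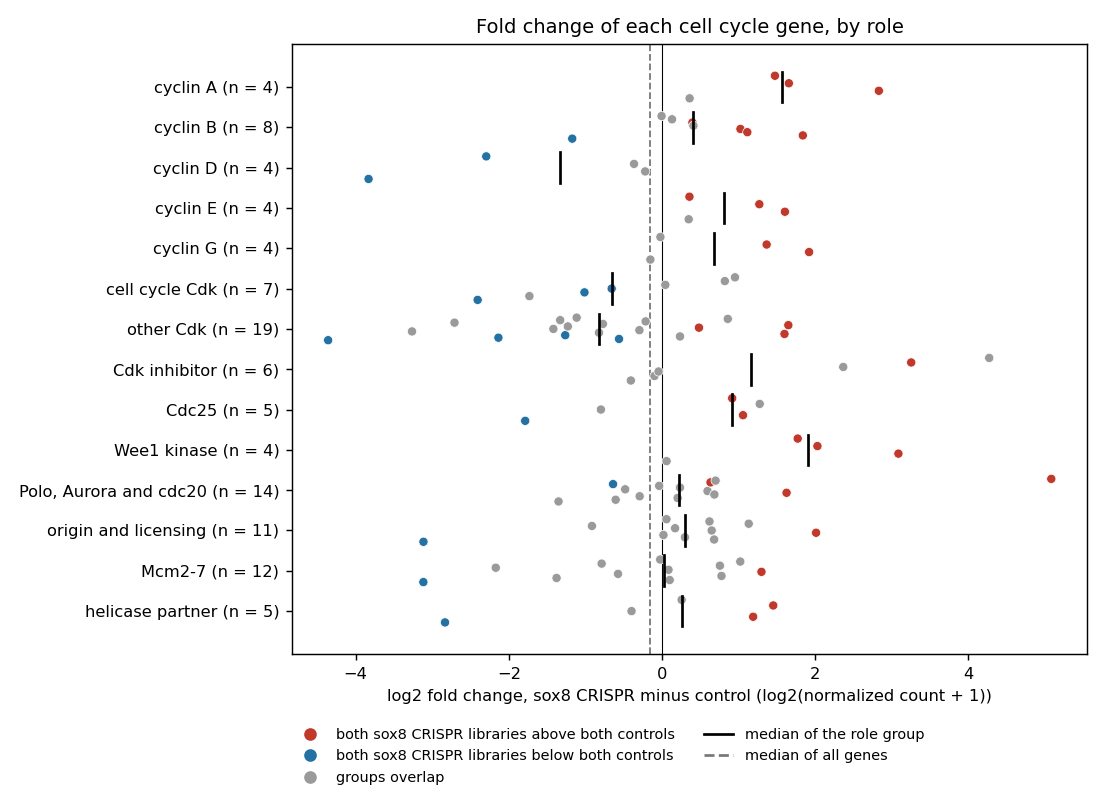
Log2 fold change (sox8 CRISPR minus control, on log2(normalized count + 1)) of each of the 107 members, 1 point a gene, in rows by role. Red points have both sox8 CRISPR libraries above both controls, blue points both below, and grey points overlap; the black bar is the median of a row and the dashed line the median of all genes (-0.16). Cyclins A and E and the Wee1 kinases lie to the right of 0, cyclins D to the left, and Mcm2-7 genes on both sides.

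Cyclin A drives S phase and entry into mitosis, and its maternal form had the smallest p among the members. The gene ccna1.S, on chromosome 2S from 143829831 to 143838570 of v10.1, had 340.4 and 718 normalized counts against 4061 and 3063, from 218 to 6502 reads. Both sox8 CRISPR libraries were well above both controls, and the fold change of the means was 6.73 (log2 fold change 2.83, SE 0.72, unadjusted p = 9.96e-04 and adjusted p = 0.135 in limma). Its adjusted p was 0.213 in edgeR and 0.0124 in DESeq2. Over 14 fits, with other settings and with single libraries left out, its log2 fold change ran from 2.30 to 3.37. The gene was called in 2 of these fits, so the direction was the same throughout but the call was not. Some of the limma fits called nothing in the whole table, so they could not call this gene. DESeq2's call was lost without control 1 (adjusted p = 0.246), sox8 CRISPR 1 (0.0619) or sox8 CRISPR 2 (0.0726). The .L homeolog of the same cyclin had 101.5 and 158 against 621 and 259.9, again without overlap (log2 fold change 1.66, SE 0.86, adjusted p = 0.766 in limma). With its homeologs summed, ccna1 had a log2 fold change of 2.66 (adjusted p = 0.13 in limma).

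The zygotic cyclin A2 was also high, but less apart from the controls. The gene ccna2.L had 1657 and 5648 normalized counts against 7156 and 10114 (log2 fold change 1.48, SE 0.85, adjusted p = 0.795 in limma), so the groups did not overlap but the controls differed more than 3-fold from each other. Its homeolog ccna2.S overlapped, at 2777 and 1818 against 3141 and 2651. As a share of all cyclin A normalized counts, ccna1 made up 9.06% and 10.5% against 31.3% and 20.7%. These shares are not corrected for transcript length, so they are read between libraries and not between genes. On the log2 scale the ratio of ccna1 to ccna2 was 1.67 higher in sox8 CRISPR, against a pooled SD of 0.42 between replicates (exact permutation p = 0.333, two-sided, the smallest that 2 against 2 libraries can give).

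The Wee1 kinases hold Cdk1 inactive, and wee2.L, wee2.S and wee1.S were above both controls in each sox8 CRISPR library. The maternal wee2.L (chromosome 3L, 5628756 to 5641162) had 21.9 and 30.2 normalized counts against 409.8 and 124, a 10.3-fold difference of the means (log2 fold change 3.09, SE 1.18, adjusted p = 0.595 in limma and 0.0553 in DESeq2). Its homeolog wee2.S had 68.7 and 75.5 against 294 and 210.3. For both homeologs the groups were apart, and the controls were close to each other. The zygotic wee1.S had 99.9 and 230.5 against 1472 and 263, so that only sox8 CRISPR 1 was far above the controls (log2 fold change 2.03, SE 0.91, adjusted p = 0.706 in limma). The low wee1.L showed no direction, at 4.68 and 21.5 against 61.8 and 1.21. The maternal share of Wee1 normalized counts was 46.4% and 29.6% against 31.4% and 55.8%, and the log2 ratio differed by 0.34 against a pooled SD of 0.90 (exact permutation p = 0.667).

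Mcm6, a subunit of the replicative helicase, had the opposite pattern of forms by the listed symbols, which are uncertain. The genes are listed in chromosome order, with mcm6.2.L between cdc25a.L and cdk13.L of chromosome 6L. The listed mcm6.L lies between aurka.L and orc4.L of 9_10L. The annotation places these symbols the other way, mcm6.2.L on 9_10L and mcm6.L on 6L. The symbols of the forms may thus be exchanged, and the direction of the Mcm6 share is uncertain. The gene listed as mcm6.2.L, zygotic by its symbol, had 423 and 1054 normalized counts against 2054 and 1317 (log2 fold change 1.30, SE 0.73, adjusted p = 0.791 in limma). Both sox8 CRISPR libraries lay above both controls. The gene listed as mcm6.L, maternal by its symbol, overlapped at 184 and 386 against 365 and 189 (log2 fold change -0.02, 0.03 with TMM scaling), and mcm6.S at 262 and 541 against 307 and 155 (-0.79). By these symbols the maternal share of Mcm6 was lower, at 51.3% and 46.8% against 24.6% and 20.7%, a log2 ratio difference of -1.72 with a pooled SD of 0.21 (exact permutation p = 0.333). The maternal share was thus higher for cyclin A, overlapping for Wee1 and, if the listed symbols hold, lower for Mcm6.

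**Figure D2:**
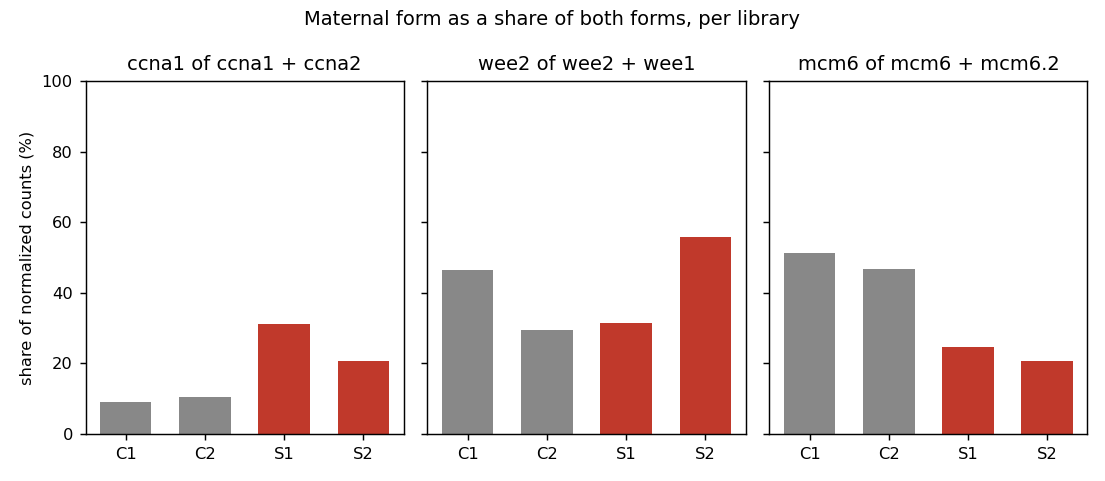
Maternal form as a percentage of the normalized counts of both forms, homeologs summed where both are in the table (mcm6.2 has only .L), in control 1 and 2 (C1, C2, grey) and sox8 CRISPR 1 and 2 (S1, S2, red). Bars are single libraries, so they have no error bar. The ccna1 share was at most 10.5% in the controls and at least 20.7% in sox8 CRISPR, the mcm6 share at least 46.8% and at most 24.6%, and the wee2 share overlapped. The Mcm6 forms follow their listed symbols, which may be exchanged.

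Other RNAs stored in the oocyte were read beside these forms. Of 23 such genes that are not members, 18 had positive fold changes, and the median of the 23 was 0.65. Both sox8 CRISPR libraries were above both controls in 13 (56.5%, beside 17% of all genes and 26.2% of members). They were below both in 2 (8.70%, beside 19.1% of all genes). None passed limma, edgeR or DESeq2, nor an unadjusted limma p under 0.05. Their summed level was 9179 and 4819 against 8867 and 9833, so the sums overlapped. Among the 23, mos.L and the low fbxo43.L of the meiotic cycle overlapped too, with log2 fold changes of 0.29 and -0.08. Of 9 germ plasm genes, 3 were higher and 3 lower without overlap (33.3% each, beside 17% and 19.1% of all genes). The part of stored RNA in the values of ccna1 and wee2 was not tested.

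Cyclins D, the partners of Cdk4 and Cdk6 in G1, were the only cyclins with negative fold changes in every member with all libraries used. The gene ccnd1.L had 1118 and 1395 normalized counts against 253.6 and 253.8, a difference of 4.95-fold with replicates close together in both groups (log2 fold change -2.29, SE 0.72, unadjusted p = 0.00506, adjusted p = 0.343 in limma and 0.0616 in DESeq2). Its homeolog ccnd1.S had 142 and 137 against 96.2 and 0. The large fitted change of ccnd1.S (-3.83) rests on the library at 0 and was -0.53 without sox8 CRISPR 2. For ccnd2.L and ccnd2.S the groups overlapped. The Cdk partner genes had negative fold changes too. The gene cdk6.L had 781 and 965 against 485 and 381, without overlap, and cdk4.S had 823 and 2777 against 1161 and 178, with overlap.

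Cyclins E, which pair with Cdk2 at the start of S phase, had positive fold changes in all members with all libraries used. The most abundant, ccne1.S, had 3304 and 3528 normalized counts against 4118 and 4654, a small difference without overlap (log2 fold change 0.36, SE 0.76). The gene ccne2.L had 829 and 1595 against 4020.2 and 1918, and ccne2.S 90.6 and 215 against 677 and 269.5. In both ccne2 homeologs sox8 CRISPR 1 was the library that stood out. The gene cdk2.S was above the control mean in both sox8 CRISPR libraries with overlap (319 and 678 against 638 and 1273), whereas cdk2.L was below both controls (431 and 622 against 395 and 272).

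The mitotic genes held both overlapping and separate groups. Cyclin B with Cdk1 forms the kinase that drives mitosis, and ccnb1.2.L had 13572 and 12466 normalized counts against 14682 and 19998 (log2 fold change 0.40, SE 0.99, adjusted p = 0.946 in limma). Of the 8 cyclin B genes, 4 were above both controls (50%, beside 17% of all genes). Below both was ccnb3.S (12.5%, beside 19.1%), at 6648 and 2284 against 1594 and 1875. The kinase gene cdk1.S had 1654 and 2404 against 1758 and 7056, where only sox8 CRISPR 2 was high, and cdk1.L overlapped. The gene cdc25c.L, a phosphatase that activates Cdk1, had 662 and 1054 against 2068 and 1466 (log2 fold change 1.06, SE 0.71), without overlap. The gene cdc20.S, an activator of the anaphase-promoting complex, overlapped at 3097 and 3621 against 5073 and 2933. Of the 14 Polo, Aurora and cdc20 genes, 10 overlapped, aurka, aurkb and plk1 among them, beside 13758 of all 21531 genes.

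Polo-like kinase 2, which takes part in centriole duplication, had the largest positive log2 fold change of the members in limma (in edgeR and DESeq2 cdkn1a.S, at 0 in both controls, was larger). The gene plk2.L (chromosome 1L, 207550020 to 207557758) had 9.37 and 1.59 normalized counts in the controls, from 6 and 2 reads, and 263 and 116 in sox8 CRISPR, from 421 and 96 reads. The means differed 34.6-fold (log2 fold change 5.08, SE 1.59, adjusted p = 0.345 in limma, 0.198 in edgeR and 0.00384 in DESeq2). The size of that fold depends on the few control reads, while both sox8 CRISPR libraries were far above them. DESeq2's call was lost without control 2 (adjusted p = 0.150) or sox8 CRISPR 1 (0.0621). Its homeolog plk2.S had 39.0 and 24.6 against 112 and 85.8, also without overlap.

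The Cdk inhibitor p21 (cdkn1a) was also higher in its .L homeolog. The gene cdkn1a.L had 26.5 and 7.15 normalized counts against 82.5 and 244, a 9.69-fold difference of the means without overlap (log2 fold change 3.25, SE 1.41, adjusted p = 0.691 in limma), and cdkn1a.S had 25.6 in sox8 CRISPR 1 and was listed at 0 in the other 3 libraries. The inhibitor gene cdkn2b.L had 40.6 and 0 against 22.5 and 661, so its fitted change of 4.27 rests on sox8 CRISPR 2. The other 3 inhibitors overlapped, with fold changes between -0.41 and -0.04. Cyclin G1 was higher in both homeologs. The gene ccng1.S had 1257 and 1196 normalized counts against 2319 and 4314, and ccng1.L had 664 and 525 against 2722 and 1842 (log2 fold change 1.92, SE 0.70, adjusted p = 0.551 in limma). The controls were close to each other in both, and both sox8 CRISPR libraries lay above them, whereas ccng2.L and ccng2.S overlapped.

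**Figure D3:**
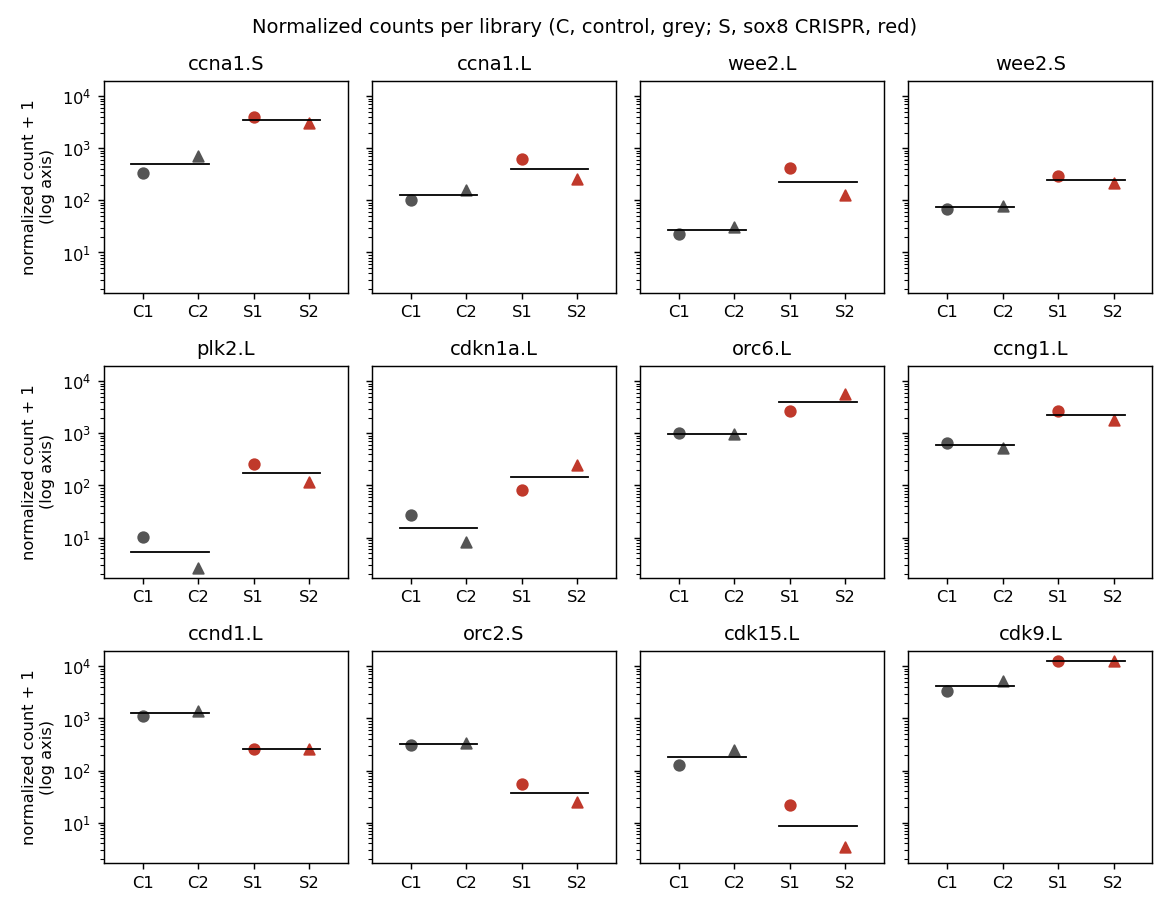
Normalized count + 1 on a log axis in control 1 and 2 (C1, C2, grey) and sox8 CRISPR 1 and 2 (S1, S2, red) for 12 genes. The horizontal line is each group's mean of log2(normalized count + 1), not the mean count behind the folds in the text. In every panel the groups do not overlap; both ccna1 and both wee2 homeologs, plk2.L, cdkn1a.L, orc6.L, ccng1.L and cdk9.L are higher in sox8 CRISPR, and ccnd1.L, orc2.S and cdk15.L are lower. The genes were picked after their values were seen, to show members whose groups are apart.

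Licensing genes held both directions within a single complex. Orc6 and Orc2 are subunits of the origin recognition complex. The gene orc6.L had 1007 and 959 normalized counts against 2719 and 5789, 4.33-fold higher (log2 fold change 2.01, SE 0.73, unadjusted p = 0.0130, adjusted p = 0.544 in limma). The gene orc2.S (chromosome 9_10S, 77629779 to 77653426) had 311 and 331 against 53.7 and 24.2, 8.24-fold lower (log2 fold change -3.12, SE 1.04, unadjusted p = 0.00787, adjusted p = 0.421 in limma and 0.0553 in DESeq2). The replicates were close in the controls for both genes, and the groups were apart in opposite directions. The subunit genes orc1.L, orc3.S and orc4.L overlapped, with fold changes between 0.02 and 0.30.

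For the loading factors Cdc6 and Cdt1 and their inhibitor geminin, the groups overlapped in every homeolog. Geminin had high counts, with gmnn.S at 24638 and 7651 normalized counts against 10432 and 46465, and gmnn.L at 12401 and 3219 against 5551 and 17682. The gene cdc6.L had 798 and 5135 against 4288 and 1212, and cdt1.L had 297 and 1362 against 1767 and 541. In each gene with values given here the controls differed more than 3-fold from each other. They were closer in cdt1.S, at 1010 and 1989 against 1478 and 382.

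In the Mcm2-7 helicase, 10 of 12 genes overlapped, beside 13758 of all 21531 genes. The most abundant, mcm7.L, had 2389 and 8504 normalized counts against 14776 and 5676 (log2 fold change 1.02, SE 0.91), and mcm7.S had the same order of libraries. Apart from mcm6.2.L, the other gene without overlap was the low mcm2.S, at 56.2 and 107 against 10.6 and 6.04. Among helicase partners, cdc45.L had 279.5 and 233 against 499.7 and 682 (log2 fold change 1.19, SE 0.75), while the low cdc45.S had 17.2 and 26.2 against 8.74 and 0.

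Cdks other than cdk1, cdk2, cdk4 and cdk6 had fold changes from -4.36 to 1.65. The gene cdk15.L (chromosome 9_10L, 90016993 to 90089918) had 128 and 247 normalized counts against 21.2 and 2.42, 15.9-fold lower (log2 fold change -4.36, SE 1.51, unadjusted p = 0.00975, adjusted p = 0.469 in limma and 0.0591 in DESeq2). Cdk9 phosphorylates RNA polymerase II and releases it into elongation. The gene cdk9.L (chromosome 8L, 14905229 to 14913485) had 3350 and 5216 against 12610.2 and 12732 (log2 fold change 1.60, SE 0.85, adjusted p = 0.768 in limma), while cdk9.S had 166 and 105 against 16.2 and 52.0. Both homeologs were without overlap and in opposite directions. Of these 19 Cdks, 3 were above both controls and 4 below (15.8% and 21.1%, beside 17% and 19.1% of all genes). The genes cdk8.L and cdk13.L were among those below, and cdk16.L and cdk17.L among those above. Their homeologs cdk8.S (log2 fold change 0.86), cdk16.S (-1.11) and cdk17.S (-0.29) had the opposite sign and overlapped.

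Homeologs were compared as copies of a gene. Both were in the table for 41 genes, and 27 pairs (65.9%) had fold changes of the same sign, beside 63.7% of 5640 pairs over all genes. Of these, 18 were positive and 9 negative. The Pearson correlation between the homeologs' fold changes was 0.52 across the 41 pairs and 0.33 across all pairs, where the points share libraries and similar sequences could share reads. In 7 genes both homeologs lay above the controls in both sox8 CRISPR libraries: ccna1, ccnb1, ccnb1.2, ccne2, ccng1, plk2 and wee2. These are 17.1% of the 41 pairs, beside 5.35% of all pairs. In ccnd1 and cdk6 both lay below (4.88%, beside 7.94%), and cdk9 and cdc45 were apart in opposite directions. How reads shared by near-identical copies were assigned is not given in the sources used here, so a split between homeologs is uncertain.

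**Figure D4:**
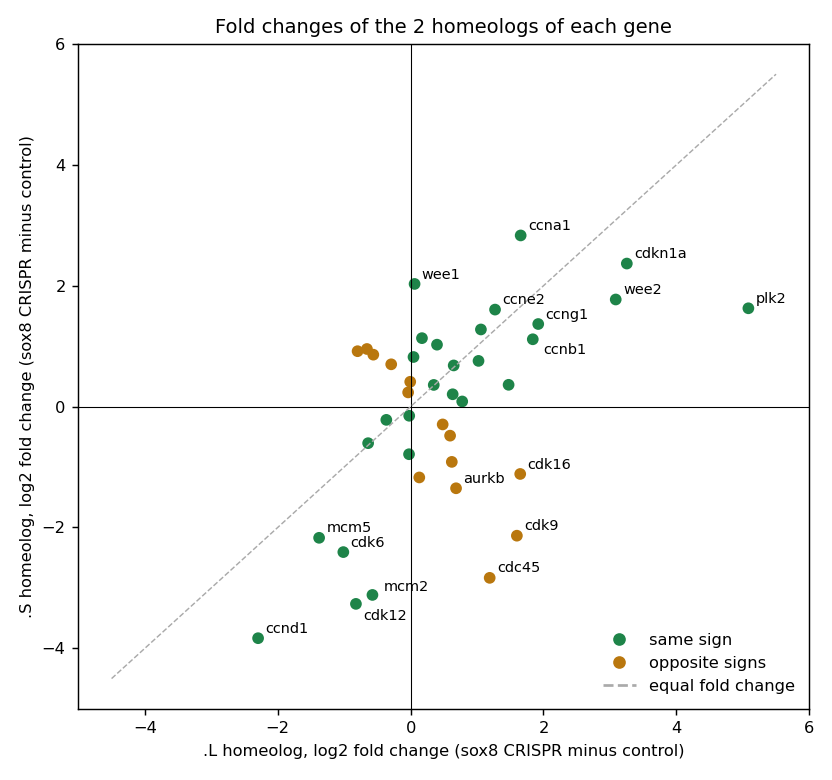
Log2 fold change (sox8 CRISPR minus control) of the .L homeolog (x axis) against the .S homeolog (y axis) for 41 genes, green where the signs are the same (27) and orange where they are opposite (14), with a dashed line of equal change. The genes ccna1, wee2, plk2 and cdkn1a are high on both axes, ccnd1 is low on both, and cdk9 and cdc45 lie at lower right. The cdkn1a.S value rests on sox8 CRISPR 1, with the gene at 0 elsewhere, and the ccnd1.S value on sox8 CRISPR 2, at 0.

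The replicates of each group differed in these genes, often in matched orders, as they did over all genes. Between the controls 41.1% of members differed more than 2-fold, and between the sox8 CRISPR libraries 51.4%, beside 49.8% and 61.1% of all genes. In 60 members control 2 was above control 1 and sox8 CRISPR 1 above sox8 CRISPR 2, and in 15 both orders were the reverse. Another 31 had the other orders, with 1 tie. Over all 21531 genes these matched orders held in 7435 and 5577. The first order was thus more frequent among the members than among all genes, and the reverse less frequent. Together they covered 70.1% of members and 60.4% of all genes. In 22 members of the first order and 5 of the reverse, both differences were over 2-fold, beside 3133 and 1853 of all genes. The genes cdc6.L, cdt1.L, mcm7.L and mcm7.S were high in control 2 and sox8 CRISPR 1, and both geminin homeologs were high in control 1 and sox8 CRISPR 2. Across the 107 members the Pearson correlation of the differences was 0.46, and 0.22 across all genes. It was 0.53 over the 91 members with a mean of 50 or more and 0.36 over all genes with such a mean, with all points from the same libraries. Members made up 0.43% and 0.77% of reads against 1.14% and 0.95%. Their normalized counts summed to 121936 and 126762 against 171379 and 212264. Of these sums gmnn.S alone held 24638 and 7651 against 10432 and 46465. The median member stood at -0.29 and 0.29 from its control mean (log2) in the controls, and at 0.49 and 0.00 in sox8 CRISPR 1 and sox8 CRISPR 2, so sox8 CRISPR 2 lay within the range of the controls.

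**Figure D5:**
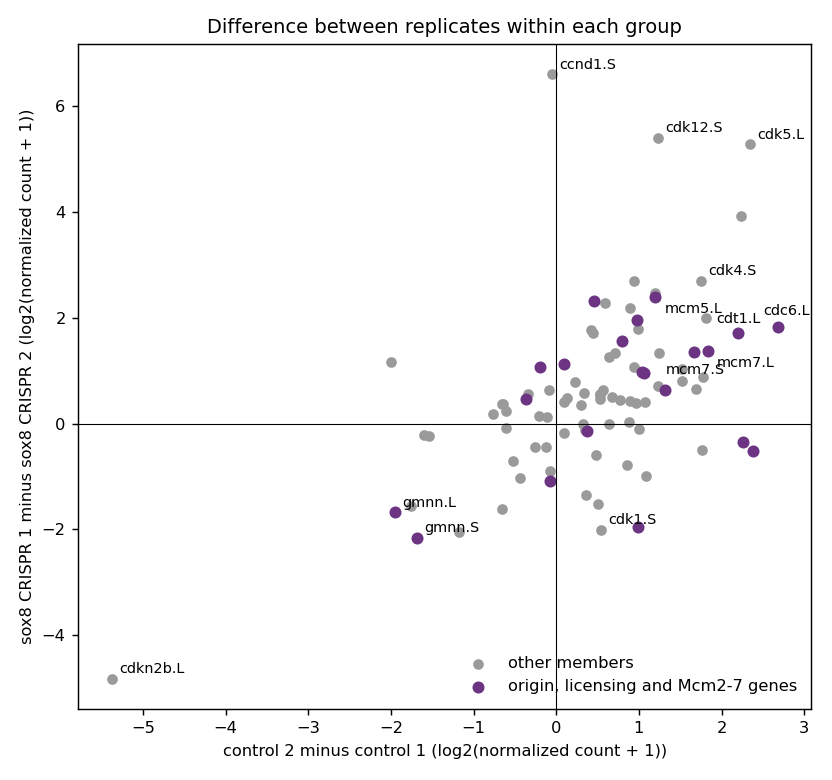
Difference between the replicates of each group on log2(normalized count + 1) for the 91 members with a mean of 50 or more: control 2 minus control 1 (x axis) and sox8 CRISPR 1 minus sox8 CRISPR 2 (y axis), with origin, licensing and Mcm2-7 genes in purple. Replicate numbers carry no order, and the signs were set to show the pattern. At upper right lie 48 of 91 points, with mcm7, cdc6.L and cdt1.L, beside 4614 of the 13718 genes with such a mean. The geminin homeologs lie at lower left.

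The pathways next to these genes were counted in the same way. Of 39 replication fork genes (polymerases, clamp loaders and nucleotide synthesis), none passed an unadjusted limma p under 0.05, 7 were above both controls and 4 below (17.9% and 10.3%, beside 17% and 19.1% of all genes), and the median log2 fold change was 0.12. Of 27 E2F and Rb family genes, 3 were above and 7 below (11.1% and 25.9%), with a median of -0.20, and 1 was higher at an unadjusted limma p under 0.05. DESeq2 called only rbl2.L in these lists, beside 2.33% of all genes to which it gave an adjusted p. This gene for the pocket protein p130 had 4.68 and 27.8 normalized counts against 277 and 395 (log2 fold change 4.70, SE 1.28, adjusted p = 0.191 in limma and 0.00391 in DESeq2). Of 44 genes of the anaphase-promoting complex and the checkpoints, 6 were above and 8 below (13.6% and 18.2%), with a median of -0.18. At an unadjusted limma p under 0.05 birc5.S (survivin) was higher and the checkpoint kinase atm.L lower (2.27% each, beside 3.01% and 3.79% of all genes). The gene birc5.S had 1112 and 475 normalized counts against 1410 and 4014, and the low atm.L 18.7 and 61.2 against 0.62 and 0. In these 3 lists limma and edgeR called none.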

How the data were processed

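The authors made Smart-seq2 libraries, trimmed reads with cutadapt 4.4, aligned them to the v10.1 assembly with HISAT2 2.2.1 and counted them per gene with featureCounts 2.0.6. Genes with a mean under 5 were dropped. The deposited signal is counts divided by a DESeq2 size factor per library. Dividing by the value of 1 read gave whole reads for 100% of values (tolerance 0.001). Strand and multi-mapping settings are not given in the sources used here.

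The main test was limma 3.58.1 (R 4.3.3, trend) on log2(normalized count + 1), where the added 1 shrinks low values and a single library near 0 can enlarge a fold change, with Benjamini-Hochberg adjustment over 21531 genes. The values turned out to be rescaled counts, so edgeR 4.0.16 and DESeq2 1.42.0 were run on the recovered reads as alternatives. With 2 libraries a group, p-values rest on the spread between these libraries. Limma's SE and p combine a gene's own spread with that of genes at a similar level. They are thus not a measure of that gene's replicates alone. The tests of edgeR and DESeq2 also share spread between genes. PCR copies carry no molecular identifiers, so a read is not a separate molecule and read totals set only the counting error.

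The members and lists were chosen with earlier results of these data known. Named genes were those called by limma, edgeR or DESeq2, the maternal forms with their zygotic counterparts, the 5 largest changes each way among members with a mean of 50 or more and no overlap, and the most abundant of each role. Others, including orc6.L and ccng1.L, were named after their values were seen. Scripts were tested on simulated data. The table holds 0 other value columns. The most abundant of each role was picked by mean normalized count, and counts were called high or low, without correction for transcript length. Levels were not otherwise compared between genes.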

Additional observations from a re-analysis of the deposited data

How the results depend on the processing

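Calls among the members depended on the method. Limma called 0, and so it did with pseudocounts of 0.5 or 5, a filter on the mean and TMM scaling, as did edgeR. Quantile normalization called 1 (ccna1.S) and DESeq2 called 2. Without an intensity trend, and with a library left out, limma called nothing in the whole table, so these fits could not call a member. With a library left out, DESeq2 called 1 to 8. The 8 came without sox8 CRISPR 1, when 1809 genes of the table were called. At an unadjusted p under 0.05 there were 11 members, and 4 to 11 with a library left out. The cause was not tested.

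The labels number the replicates without saying that a number marks a shared batch. Same-numbered libraries deviated in opposite ways (correlation -0.22), and the replicate block called 0 members (0.399% of all genes), with 8 at an unadjusted p under 0.05 (7.48%, beside 4.13%). A crossed pairing, chosen after seeing the data, called 7 (4 higher, 3 lower; 6.54%, beside 3.60% of all genes), with 26 under 0.05 (24.3%, beside 13.7%).

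Of the named genes' fold changes under these settings, 362 kept direction and call, 3 gained a call and 11 reversed. The reversals were in wee1.L (-0.048 with a pseudocount of 0.5, -2.36 to 2.48 with a library left out), mcm6.L (0.027 with TMM, 0.011 in edgeR, -0.55 to 0.51 with a library left out), gmnn.S (-0.40 to 1.76), cdc20.S (-0.19 to 0.60) and cdk1.S (-0.18 to 1.82). The median of all genes moved from -0.16 to -0.02 with quantile normalization, 0.07 in edgeR and 0.01 in DESeq2, and the members' median stayed 0.25 to 0.36 above it under those scalings. Low read counts limit some members, 17 of which had 3 reads or fewer in sox8 CRISPR 2, beside 6 in control 1. The reads on genes of these libraries were 18427818 and 18189895, and the cause of the low counts was not tested. Having 2 libraries a group limits all members.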

Other observations

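The name patterns leave out one Cdk inhibitor of the frog embryo, cdknx.L, which encodes p27Xic1. It was looked up after the members' values were seen. It had 228 and 87.4 normalized counts in control 1 and 2 against 1294 and 584 in sox8 CRISPR 1 and 2, without overlap (log2 fold change 2.61, SE 0.82, unadjusted p = 0.00512, adjusted p = 0.344 in limma). The zygotic Mcm3 gene zmcm3.L, also outside the patterns, overlapped between the groups at 751 and 1326 against 1548 and 279.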
